A study of Homo sapiens with 6 samples.

Results

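The 43 genes described here encode the machinery of autophagy and of the lysosome. They were taken as a list of gene symbols, and each symbol was matched to the Ensembl identifier in the deposited count files. All 43 were found among the 60617 identifiers of those files, and all 43 passed the filter on low counts that left 20423 genes for testing. The genes were sorted by role into 10 groups, namely the initiation kinase complex (4 genes), the lipid kinase complex (3), membrane supply and readers of phosphatidylinositol 3-phosphate (3), the conjugation machinery (5), the ATG8 family (5), cargo receptors (5), the TFEB family (2), lysosomal membrane and lipid export (5), hydrolases (6) and the proton pump (5).

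RNA was sequenced from 6 xenograft tumors of the established human melanoma cell line WM983-B. In the anle138b group, 3 tumors came from hosts given systemic anle138b, a diphenyl-pyrazole compound that the series describes as a binder of α-synuclein oligomers. The untreated group held 3 tumors of the same line without treatment. The labels name no dose, time, host strain or vehicle, and they leave unsaid whether each tumor had its own host, so the p-values speak only of the variation among these 6 libraries, which may be partly technical. The sample titles follow 2 naming styles whose meaning is not given in the sources used here. A 2-library set held replicate 3 of each group, and a 4-library set held replicates 1 and 2 of each group.

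In macroautophagy a membrane sac grows around cytoplasm, closes to form an autophagosome and fuses with the lysosome, where acid hydrolases digest the content. The ULK1 kinase complex starts the process and the Beclin 1 lipid kinase complex marks the membrane. A conjugation chain then fixes proteins of the ATG8 family to lipid, and cargo receptors hold the target against them. The basic helix-loop-helix factors TFEB, TFE3 and MITF bind E-box sequences in the promoters of many lysosomal and autophagy genes. MITF is also the master regulator of the melanocyte lineage. Many autophagy proteins are controlled after translation, which RNA levels do not show.

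Libraries held 12400782 to 27599159 gene counts, and 3 counts stood for 0.109 to 0.242 CPM (counts scaled to the size of the library), a floor that covers counting error only. Levels are CPM after trimmed-mean (TMM) scaling unless given per kilobase of exon. The first principal component of all genes carried 53.8% of the variance and separated the naming sets, and the second carried 17.0% and separated the treatments. The melanoma label was met by the melanocytic markers, whose 8 genes summed to 15433 to 18991 CPM in anle138b tumors and 14016 to 18255 CPM in untreated tumors. The 11 macrophage markers, a lysosome-rich cell type, summed to 37.6 to 63.5 CPM in anle138b tumors and 30.6 to 53.6 CPM in untreated tumors, with CD14 and AIF1 under 1 CPM throughout. PTPRC, CSF1R, LYZ and MRC1 of the same list were above 1 CPM in every tumor, and LYZ, the highest of them, had 16.7 to 29.6 CPM in anle138b tumors and 9.63 to 24.9 CPM in untreated tumors. Sums were 473 to 858 CPM in anle138b and 439 to 581 CPM in untreated tumors for 8 fibroblast markers, and at most 24.1 CPM in anle138b and 17.99 CPM in untreated tumors for 7 endothelial markers. Within the fibroblast list, LUM, COL1A1, COL1A2 and COL3A1 had at least 55.7 CPM in every tumor. FAP had 21.0 to 35.6 CPM, and DCN, PDGFRA and PDGFRB had at most 9.25 CPM in any tumor. The 7 skeletal muscle markers summed to 26.0 to 103 CPM in anle138b and 28.8 to 71.7 CPM in untreated tumors. Of these lists only the fibroblast one held a gene that passed the treatment test, LUM, and the part of such cells in the values below was not tested. How mouse reads of the host were handled is not given in the sources used here. Macrophages, fibroblasts, endothelium and muscle of a xenograft belong to the host, while the counts are on human gene models. These sums therefore do not measure how many such cells were present, and low sums do not show that such cells were few. Whether host reads entered the counts of the autophagy and lysosome genes was not tested.

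Promoters of the genes that carry CACGTG, a form of the E-box that TFEB, TFE3 and MITF can bind, are shown first. RefSeq promoters (build GRCh38.p14, 250 bases before to 50 after each start) were available for 33 of the 43 genes. The motifs searched were CACGTG, the longer TCACGTGA and the full palindrome, which adds G before and C after the longer one. Each contains the one before it and reads the same on both strands. CACGTG was present for 8 of the 33 genes (24.2%) and for 26 of 106 other genes of the pathway (24.5%). Also counted by gene, it was present for 11.9% of the 12372 tested genes with a promoter and 8.77% of all 27305 genes with one. Counted by single promoter, it was present in 7.26% of all 35116. The longer TCACGTGA was present in 5 of the 33 (15.2%), against 2.04% of tested genes and 11 of 106 other pathway genes (10.4%). The full palindrome was present only in MCOLN1 among the 33 (3.03%), against 0.808% of tested genes and 6 of 106 other pathway genes (5.66%). Capitals mark CACGTG. The promoters with more than 1 copy in the lysosomal groups are given from 250 bases before the start to 10 after it:
LAMP1, chr13:113296989-113297248, plus strand: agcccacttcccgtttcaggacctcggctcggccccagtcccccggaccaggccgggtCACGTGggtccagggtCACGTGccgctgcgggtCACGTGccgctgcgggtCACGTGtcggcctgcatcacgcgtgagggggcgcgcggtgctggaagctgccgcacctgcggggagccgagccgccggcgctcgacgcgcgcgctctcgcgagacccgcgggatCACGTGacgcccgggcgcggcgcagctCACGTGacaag
CTSA, chr20:45891085-45891344, plus strand: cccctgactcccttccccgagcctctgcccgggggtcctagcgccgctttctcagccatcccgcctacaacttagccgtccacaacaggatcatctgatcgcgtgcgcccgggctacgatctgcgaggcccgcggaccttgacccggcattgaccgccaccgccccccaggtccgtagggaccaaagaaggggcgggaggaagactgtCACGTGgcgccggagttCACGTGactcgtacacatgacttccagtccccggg
MCOLN1, chr19:7522374-7522633, plus strand: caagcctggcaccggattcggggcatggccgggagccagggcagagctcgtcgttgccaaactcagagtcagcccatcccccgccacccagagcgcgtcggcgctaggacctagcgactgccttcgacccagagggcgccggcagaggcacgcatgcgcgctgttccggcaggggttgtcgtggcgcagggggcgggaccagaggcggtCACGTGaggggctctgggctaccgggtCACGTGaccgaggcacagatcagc
A stretch of 60 bases is given for the other 5:
ATG3, chr3:112561948-112562007, minus strand: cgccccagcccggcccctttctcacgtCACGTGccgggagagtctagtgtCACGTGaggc
ATP6V0D1, chr16:67481184-67481243, minus strand: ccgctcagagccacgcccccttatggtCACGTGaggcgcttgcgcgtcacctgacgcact
CTSD, chr11:1763942-1764001, minus strand: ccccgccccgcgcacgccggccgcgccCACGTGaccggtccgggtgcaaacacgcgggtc
BNIP3, chr10:131982025-131982084, minus strand: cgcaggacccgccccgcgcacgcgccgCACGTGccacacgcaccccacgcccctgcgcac
ATG14, chr14:55411819-55411878, minus strand: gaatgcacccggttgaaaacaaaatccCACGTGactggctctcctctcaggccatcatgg
LAMP1 held 6 copies of CACGTG, and CTSA, MCOLN1 and ATG3 held 2 each. These matches are letters in a window and no measure of binding.

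Levels per kilobase of exon differed widely among the 43 genes while most differed little between tumors. Per kilobase, the mean over 6 tumors ran from 0.395 CPM for GABARAP to 74.4 CPM for CTSA, the carboxypeptidase that also protects lysosomal β-galactosidase and neuraminidase. The cathepsin proteases CTSD (72.4), CTSL (69.7) and CTSB (64.3) followed CTSA in CPM per kilobase, and the ranges of all 4 over tumors overlapped, so their order is not resolved. The glycosidases GLA and HEXA lay lower, at 16.2 and 8.60 CPM per kilobase. Their order rests on the length of all exons merged, 2275 bases for GLA and 12611 for HEXA. Without length HEXA was the higher, at 116 CPM in anle138b and 101 CPM in untreated tumors. GLA had 38.8 CPM in anle138b and 34.9 CPM in untreated tumors. Outside the hydrolases, the highest levels per kilobase were those of WIPI1, a reader of phosphatidylinositol 3-phosphate (49.2), NPC2, the soluble cholesterol carrier of the lysosome (46.1), and LAMP2, a glycoprotein of the lysosomal membrane (41.9). The pump genes ATP6V1A (40.9) and ATP6V1B2 (40.7) came close to LAMP2. Ranges of these genes over tumors overlapped, so their order is not resolved either.

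**Figure D1:**
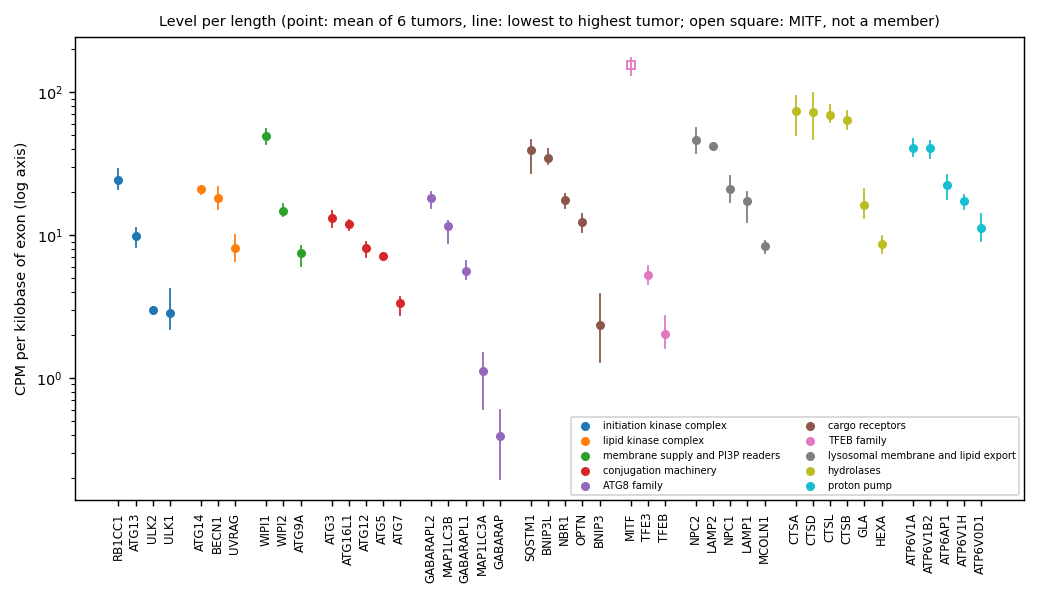
Mean level per kilobase of exon over 6 tumors for the 43 genes, by role, on a log axis. Lines join the lowest and the highest tumor, and the open square is MITF, which is not among the 43. The 4 cathepsins sit at 64.3 to 74.4 CPM per kilobase. GABARAP is lowest at 0.395, with 55.7% of its exon bases in exons of other genes.

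The initiation complex was uneven per length. RB1CC1, the scaffold of the complex, had 24.4 CPM per kilobase, the adaptor ATG13 had 9.86, and the kinases ULK2 and ULK1 had 2.98 and 2.86, with overlapping ranges. In the ATG8 family, whose members are fixed to the growing membrane, GABARAPL2 made up 44.3% to 53.8% of the summed level per kilobase in each tumor, MAP1LC3B 26.4% to 33.9% and GABARAPL1 13.8% to 17.4%. MAP1LC3A and GABARAP made up 1.56% to 3.89% and 0.512% to 1.76%. GABARAP had 6 to 22 reads per tumor, and 55.7% of its exon bases lay in exons of other genes. Its level and share therefore carry the limit of annotation given below. Per kilobase, the order of GABARAPL2, MAP1LC3B and GABARAPL1 was the same in every tumor. It rests on merged exon lengths of 3034 bases for GABARAPL2 and 5313 for MAP1LC3B. In CPM without length, MAP1LC3B was above GABARAPL2 in every tumor except untreated replicate 1 (47.1 against 54.7 CPM). Among the cargo receptors, SQSTM1 (p62) and the mitophagy receptor BNIP3L led with 39.2 and 34.9 CPM per kilobase, and BNIP3 was lowest with 2.35.

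The TFEB family was read beside its relative MITF. Per kilobase, MITF had a mean of 156 CPM, TFE3 5.23 and TFEB 2.03. Of the summed level per kilobase of MITF, TFEB, TFE3 and TFEC, MITF took 95.5% to 96.4% in anle138b tumors and 94.6% to 95.8% in untreated tumors. TFEB took 0.934% to 1.22% in anle138b tumors and 1.13% to 1.68% in untreated tumors, ranges that overlapped.

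Some levels carry a limit of annotation. The library kit does not mark strand, and the setting for reads that overlap several genes is not given in the sources used here. At least 20% of exon bases lay in exons of another gene in GENCODE 29 for 6 of the 43 genes, GABARAP (55.7%), CTSD (52.7%), ATG9A (38.8%), CTSA (28.5%, shared with PLTP, NEURL2 and AL008726.1), WIPI1 (28.1%) and SQSTM1 (22.0%). For 21 genes no exon base was shared. Reads in shared bases may have been lost or given to the other gene, and their part in these levels was not tested.

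The treatment comparison asked whether genes of autophagy and the lysosome differed between anle138b and untreated tumors. None of the 43 genes passed the test at an adjusted p of 0.05 (edgeR quasi-likelihood test with naming set as a term, Benjamini-Hochberg over 20423 genes), against 1.05% of all genes tested (0.656% higher and 0.397% lower). DESeq2 and limma voom, which called 2.02% and 1.17% of all genes, also called 0 of the 43. For CTSA the DESeq2 result lay at the threshold (adjusted p = 0.0501). At an unadjusted p of at most 0.05, 2 genes were higher and 3 lower in anle138b tumors, 11.6% of the 43, against 8.49% of all genes. The log2 fold change of anle138b over untreated was positive for 25 genes and negative for 18, with a median of 0.04 and a range of -0.40 to 0.43. Over all genes tested it was positive for 9788 and negative for 10635, with a median of -0.01. The median size of the change was 0.12 on the log2 scale for the 43 genes, against 0.13 for all genes and 0.09 for the 10562 genes with a mean of at least 10 CPM.

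Most of the intervals were narrow. The 95% interval of the change lay inside 2-fold either way for 42 of the 43 genes, all but GABARAP, and for 82.3% of all genes. It lay inside 1.5-fold for 36 of the 43, against 52.6% of all genes and 87.9% of the 10562 more abundant ones. A miss at the threshold does not show equal levels. Libraries were simulated with the dispersion fitted to each gene and with 200 of 20423 genes changed. There, 20% of genes changed by 0.5 on the log2 scale were called and 84% of those changed by 1. Of the calls in that run 10.1% were false, and the rates were not measured for the 43 genes themselves. In a bulk tumor sample, fewer cells of a type and less RNA per cell cannot be told apart.

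**Figure D2:**
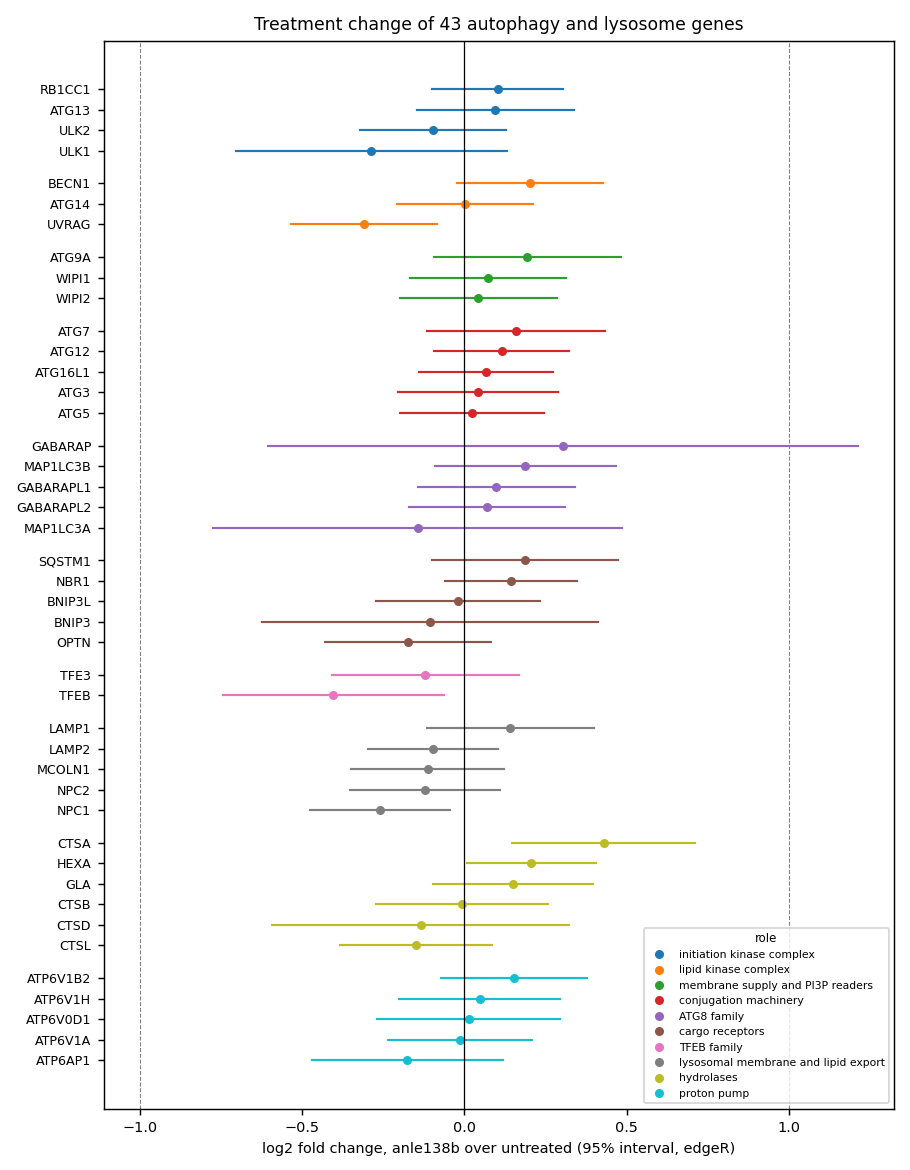
Log2 fold change of anle138b over untreated with its 95% interval (edgeR) for each of the 43 genes, coloured by role. The estimates run from -0.40 for TFEB to 0.43 for CTSA, and the widest interval is that of GABARAP, from -0.61 to 1.21.

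Values of anle138b and untreated tumors did not overlap for 7 of the 43 genes (16.3%), against 8.5% of all genes. In 2 of them, MAP1LC3B and CTSA, every anle138b tumor was above every untreated tumor (4.03% of all genes), and in 5, ULK2, UVRAG, TFEB, LAMP2 and NPC1, every anle138b tumor was below (4.47% of all genes). Within each naming set, all anle138b tumors were above all untreated tumors for 7 genes (RB1CC1, BECN1, ATG12, MAP1LC3B, NBR1, CTSA and HEXA) and below for 7 (ULK2, UVRAG, TFEB, LAMP2, NPC1, MCOLN1 and CTSL). Together these make 32.6% of the 43 genes, against 19.9% of all genes, of which 9.52% lay above and 10.4% below.

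**Figure D3:**
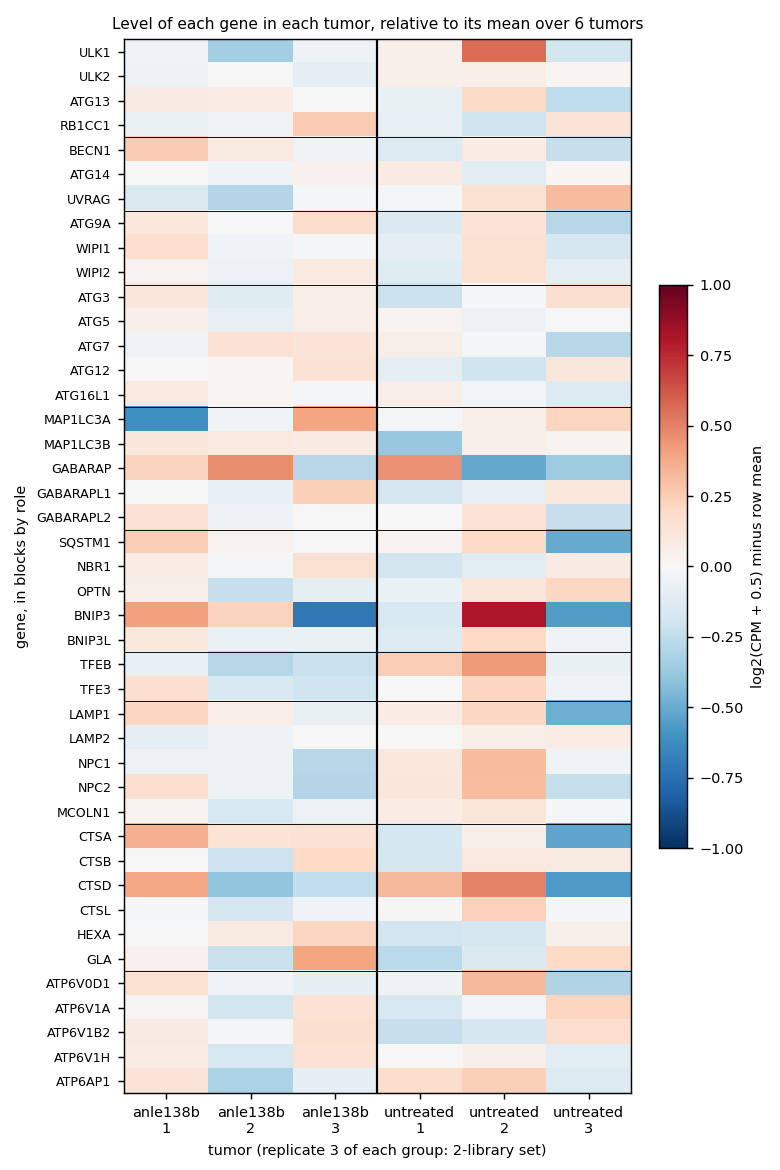
Level of each of the 43 genes in each tumor as log2(CPM + 0.5) minus the mean of its row, anle138b tumors left and untreated tumors right, with black lines between role groups. BNIP3 is lowest in replicate 3 of both groups, at 6.90 CPM in anle138b and 7.76 CPM in untreated tumors, and CTSA is lowest in untreated replicate 3, at 296 CPM.

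Among the initiation and lipid kinase genes, UVRAG had the smallest p. UVRAG (chromosome 11, 75815167 to 76143195, GRCh38), a Beclin 1 partner that directs the lipid kinase to endosome and autophagosome maturation, had 46.4, 41.9 and 50.6 CPM in anle138b replicates 1 to 3, against 51.0, 57.3 and 64.0 CPM in untreated replicates 1 to 3. Every anle138b tumor lay below every untreated tumor, though anle138b replicate 3 and untreated replicate 1 were close, and replicate 3 was the highest of each group. The log2 fold change was -0.31 ± 0.10 (SE, n = 3 per group; unadjusted p = 0.0121, adjusted p = 0.292, edgeR), and within the 2-library and 4-library sets it was -0.34 and -0.29. ULK1, the kinase that starts autophagy, had 20.8, 16.8 and 20.6 CPM in anle138b tumors, against 22.1, 31.7 and 18.8 CPM in untreated tumors. The groups overlapped, with untreated replicate 2 the highest and untreated replicate 3 below 2 of the anle138b tumors, and the change was -0.29 ± 0.19 (adjusted p = 0.809, edgeR). Left out in turn, single tumors moved it between -0.51 and -0.07.

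BECN1 itself, the scaffold of the lipid kinase complex, had 138, 123 and 112 CPM in anle138b tumors and 105, 122 and 98.4 CPM in untreated tumors. Within each set the anle138b tumors were higher, though the groups overlapped across sets (log2 fold change 0.20 ± 0.10, adjusted p = 0.676, edgeR). ATG14, which directs the complex to the site of autophagosome formation, had 106, 103 and 109 CPM in anle138b tumors and 112, 98.3 and 107 CPM in untreated tumors. Its anle138b tumors all lay within the range of the untreated tumors, and its change of 0.00 ± 0.09 changed sign under upper-quartile scaling and library size alone. RB1CC1 had 177, 180 and 221 CPM in anle138b tumors, against 175, 161 and 202 CPM in untreated tumors, so that replicate 3 was the highest of each group (0.10 ± 0.09, adjusted p = 0.902, edgeR). ULK2 and ATG13 had changes of -0.10 and 0.10.

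Genes that supply membrane and lipidate ATG8 proteins had positive estimates in all 8 cases, between 0.02 and 0.19 on the log2 scale. None passed the test, and 5809 of the 10562 genes with a mean of at least 10 CPM also had positive estimates. Within the 4-library set WIPI2 and ATG5 were negative, at -0.029 and -0.002. ATG9A, the membrane-spanning lipid scramblase of autophagic vesicles, had 37.9, 35.2 and 39.7 CPM in anle138b tumors and 31.8, 38.8 and 28.8 CPM in untreated tumors. The groups overlapped through untreated replicate 2, and the change was 0.19 ± 0.13 (adjusted p = 0.818, edgeR), or 0.46 in the 2-library set and 0.06 in the 4-library set. WIPI1 had 187, 162 and 165 CPM in anle138b tumors, against 156, 185 and 148 CPM in untreated tumors, overlapping in the same way (0.07 ± 0.11). ATG7, the E1-like enzyme that activates ATG12 and ATG8 proteins, had 28.4, 32.5 and 32.2 CPM in anle138b tumors and 30.7, 29.2 and 24.2 CPM in untreated tumors. Its lowest value was in untreated replicate 3 and the groups overlapped (0.16 ± 0.12, adjusted p = 0.870, edgeR). Its change was 0.41 in the 2-library set and 0.02 in the 4-library set, and in the fit without anle138b replicate 3 or untreated replicate 3 it was 0.03 or 0.04. ATG3, the E2-like enzyme that transfers ATG8 proteins to lipid, had 87.5, 74.2 and 84.4 CPM in anle138b tumors, against 69.5, 80.1 and 90.2 CPM in untreated tumors. Both the lowest and the highest of these were untreated tumors (0.04 ± 0.11). WIPI2, ATG12, ATG16L1 and ATG5 had changes of 0.04, 0.11, 0.07 and 0.02.

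In the ATG8 family MAP1LC3B, the form commonly followed as an autophagosome marker, had 66.5, 65.5 and 65.0 CPM in anle138b tumors, against 47.1, 63.6 and 62.6 CPM in untreated tumors. Every anle138b tumor was above every untreated tumor, but untreated replicates 2 and 3 lay close to the anle138b tumors and untreated replicate 1 stood lower. The change was 0.19 ± 0.12 (adjusted p = 0.813, edgeR), with 0.06 in the 2-library set and 0.27 in the 4-library set. GABARAPL2 had 60.4, 52.9 and 54.9 CPM in anle138b tumors and 54.7, 59.9995 and 46.6 CPM in untreated tumors. Those groups overlapped (0.07 ± 0.11), and in the 4-library set alone the estimate was -0.02. GABARAPL1 had a change of 0.10. MAP1LC3A and GABARAP were counted at 14 to 75 and 6 to 22 reads per tumor, with changes of -0.14 ± 0.28 and 0.30 ± 0.41, and are the 2 least precise members.

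Estimates for the cargo receptors lay on both sides of 0. SQSTM1, which is itself degraded with its cargo, had 352, 303 and 296 CPM in anle138b tumors, against 302, 341 and 209 CPM in untreated tumors. The groups overlapped and untreated replicate 3 was the lowest (0.19 ± 0.13, adjusted p = 0.828, edgeR), with a change of 0.51 in the 2-library set and 0.03 in the 4-library set. NBR1, a relative of SQSTM1 that binds ubiquitin and ATG8 proteins, had 155, 146 and 164 CPM in anle138b tumors and 130, 136 and 156 CPM in untreated tumors. It was higher in the anle138b tumors of each set, with overlap only across sets (0.14 ± 0.09, adjusted p = 0.799, edgeR). OPTN, BNIP3 and BNIP3L had changes of -0.17, -0.11 and -0.02.

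TFEB (chromosome 6, 41683978 to 41736259) had the most negative estimate of the 43 genes. It had 10.6, 9.19 and 9.59 CPM in anle138b tumors, against 13.5, 15.3 and 10.7 CPM in untreated tumors. The groups did not overlap, but untreated replicate 3 lay close to the highest anle138b tumor. The change was -0.40 ± 0.15 (unadjusted p = 0.0249, adjusted p = 0.432, edgeR), and it was -0.16 in the 2-library set and -0.54 in the 4-library set. TFE3, its close relative, had 25.1, 20.05 and 19.4 CPM in anle138b tumors, against 22.3, 25.9 and 21.8 CPM in untreated tumors. Those groups overlapped, since anle138b replicate 1 was above 2 of the untreated tumors (-0.12 ± 0.13, adjusted p = 0.928, edgeR). MITF had 1191, 1205 and 953 CPM in anle138b tumors and 969, 1249 and 1158 CPM in untreated tumors, with a change of -0.02 ± 0.14.

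Of the 5 genes of the lysosomal membrane and lipid export, 4 had negative estimates. So did 4753 of the 10562 genes with a mean of at least 10 CPM. NPC1 (chromosome 18, 23506184 to 23586898), the membrane protein that passes cholesterol out of the lysosome, had 202, 203 and 172 CPM in anle138b tumors, against 226, 261 and 204 CPM in untreated tumors. The groups did not overlap, though untreated replicate 3 lay close to the higher anle138b tumors, which belong to the other set. The change was -0.26 ± 0.10 (unadjusted p = 0.0224, adjusted p = 0.407, edgeR), with -0.25 in the 2-library set and -0.26 in the 4-library set. Its partner NPC2 had 140, 121 and 103 CPM in anle138b tumors and 136, 155 and 106 CPM in untreated tumors. Those groups overlapped, with replicate 3 the lowest of each (-0.12 ± 0.10, adjusted p = 0.891, edgeR). LAMP2 and the calcium channel MCOLN1 had changes of -0.10 and -0.11, and LAMP1 is described below with the naming sets.

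CTSA (chromosome 20, 45890144 to 45898820) had the smallest p and the most positive estimate of the 43 genes. It had 548, 470 and 474 CPM in anle138b tumors, against 379, 446 and 296 CPM in untreated tumors. Every anle138b tumor was above every untreated tumor, and untreated replicate 2 came closest. The means were 497 ± 44.0 CPM in anle138b tumors and 374 ± 75.0 CPM in untreated tumors (SD, n = 3 each), and the change was 0.43 ± 0.13 (95% interval 0.15 to 0.71, unadjusted p = 0.00722, adjusted p = 0.223, edgeR). It was 0.68 in the 2-library set and 0.30 in the 4-library set. Without the filter on low counts, which called 1.62% of 46484 genes, the adjusted p was 0.00148 (edgeR). By DESeq2 it was 0.0501, and by limma voom 0.163. Of the summed level per kilobase of the 6 hydrolases, CTSA took 27.3%, 29.4% and 26.0% in anle138b tumors, against 21.7%, 22.0% and 19.3% in untreated tumors.

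The other hydrolases did not share a direction. HEXA (chromosome 15, 72340919 to 72376476), the alpha subunit of β-hexosaminidase, had 108, 115 and 125 CPM in anle138b tumors and 94.6, 95.9 and 112 CPM in untreated tumors. It was higher in the anle138b tumors of each set, while untreated replicate 3 lay between anle138b tumors of the other set. The change was 0.21 ± 0.09 (unadjusted p = 0.0433, adjusted p = 0.554, edgeR). CTSD, an aspartic protease, had 284, 165 and 183 CPM in anle138b tumors, against 272, 307 and 146 CPM in untreated tumors. Its tumors varied more within each group than between groups (-0.14 ± 0.20), with 0.32 in the 2-library set and -0.41 in the 4-library set. CTSB, CTSL and GLA had changes of -0.01, -0.15 and 0.15. Summed over the 6 hydrolases, levels were 1496 ± 142 CPM in anle138b tumors and 1402 ± 163 CPM in untreated tumors (SD, n = 3 each), which overlapped.

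The proton pump acidifies the lysosome and had estimates on both sides of 0. ATP6V1B2, a subunit of the ATP-cleaving head, had 335, 313 and 355 CPM in anle138b tumors, against 270, 282 and 355 CPM in untreated tumors. In the 4-library set the anle138b tumors were higher, and in the 2-library set the tumors were level (0.15 ± 0.10, adjusted p = 0.811, edgeR). ATP6V1A, the catalytic subunit of the head, had 211, 184 and 232 CPM in anle138b tumors and 187, 205 and 242 CPM in untreated tumors. The groups overlapped, and the estimate of -0.01 ± 0.10 changed sign with DESeq2 size factors. ATP6V0D1, ATP6V1H and ATP6AP1 had changes of 0.01, 0.05 and -0.18. The 5 pump genes summed to 827 ± 66.1 CPM in anle138b tumors and 809 ± 48.4 CPM in untreated tumors (SD, n = 3 each).

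**Figure D4:**
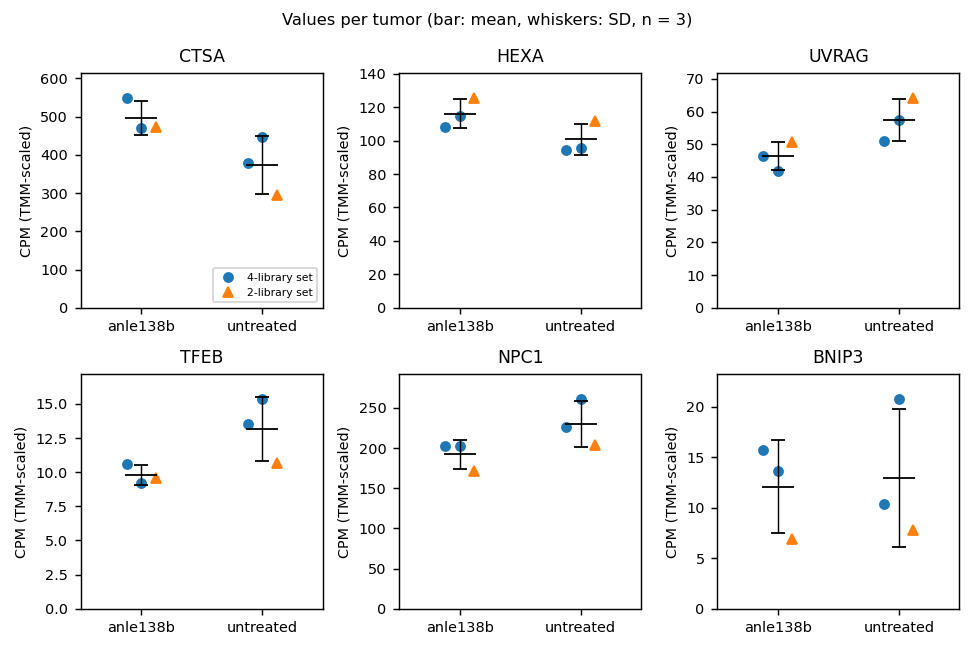
TMM-scaled CPM in each tumor for the 5 genes with the smallest treatment p and for BNIP3. Circles are the 4-library set, triangles the 2-library set, and bars the mean and SD of 3 tumors. CTSA lies at 470 to 548 CPM in anle138b tumors and 296 to 446 CPM in untreated tumors, and BNIP3 is lowest in the 2-library set of both groups.

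Estimates lay on both sides of 0 among genes with and without CACGTG in the promoter. The 8 genes that carry it had a median log2 fold change of 0.01 (-0.14 to 0.43) and 5 positive estimates, and the 25 genes with a promoter that lacks it had a median of 0.07 (-0.40 to 0.30) and 16 positive estimates. CTSA and LAMP1, with 2 and 6 copies, had 0.43 and 0.14, and MCOLN1, with the full palindrome, had -0.11.

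Another 138 genes of the same pathways were read from the same fit, and 134 passed the filter on low counts. None passed the test for treatment by edgeR or limma voom, and DESeq2 called 1, ATP6V0D2 (adjusted p = 0.023). At an unadjusted p of at most 0.05, 3 were higher and 9 lower (8.96%). Estimates were positive for 55 and negative for 79, with a median of -0.03, against 9788 positive and 10635 negative over all genes tested. By list, medians were -0.06 over 32 other autophagosome genes, 0.01 over 22 genes of the TFEB family and its control, -0.02 over 40 other hydrolases, -0.01 over 22 other genes of the lysosomal membrane and sorting and -0.08 over 18 other pump genes.

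The pump list held both of its named genes on the lower side. ATP6V0D2 and ATP6V0A4 are membrane-sector subunits with a restricted tissue range. ATP6V0D2 had 60.1, 48.1 and 38.0 CPM in anle138b tumors, against 60.04, 93.6 and 76.1 CPM in untreated tumors, so that untreated replicate 1 was level with anle138b replicate 1 and the other untreated tumors were above all anle138b tumors (-0.67 ± 0.18, adjusted p = 0.166, edgeR). Without untreated replicate 1 it was -0.85 with an adjusted p of 0.0389, in a fit that called 0.634% of all genes. ATP6V0A4 had 13.6, 11.02 and 12.7 CPM in anle138b tumors, against 17.7, 24.1 and 15.2 CPM in untreated tumors, without overlap (-0.58 ± 0.17, adjusted p = 0.241, edgeR). Without the filter on low counts, adjusted p was 5.30e-06 for ATP6V0D2 and 0.0215 for ATP6V0A4 (edgeR).

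Among the other hydrolases, IDUA, the iduronidase that cuts dermatan and heparan sulfate, had 1.84, 1.52 and 0.637 CPM in anle138b tumors, against 3.47, 3.26 and 1.82 CPM in untreated tumors. Each set had lower anle138b tumors, at 18 to 24 reads in anle138b tumors against 43 to 57 in untreated tumors, and the change was -1.16 ± 0.25 (adjusted p = 0.0724, edgeR). Without the filter on low counts its adjusted p was 0.00583. FUCA1, the lysosomal fucosidase, had 29.1, 26.9 and 40.4 CPM in anle138b tumors and 24.2, 21.2 and 26.6 CPM in untreated tumors. Its groups did not overlap, the closest pair being 26.9 CPM in an anle138b tumor and 26.6 CPM in an untreated tumor (0.41 ± 0.12, adjusted p = 0.216, edgeR). In the remaining lists the 2 genes with the smallest p were RHEB (-0.27 ± 0.10) and SLC38A9 (0.20 ± 0.10), both activators of mTORC1 signalling, TPCN1 (-0.27 ± 0.10) and SORT1 (-0.22 ± 0.11), an endolysosomal channel and a sorting receptor, and the low-count genes ATG9B (0.76 ± 0.39) and MAP1LC3C (-0.91 ± 0.50), none of which passed.

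The naming sets show how far the 43 genes varied between tumors apart from treatment. Between the 2-library set and the 4-library set, 4 of the 43 genes passed (9.30%; edgeR, adjusted p at most 0.05), 1 higher and 3 lower in the 2-library set, against 15.5% of all genes, with 8.32% higher and 7.14% lower. Of the 134 other pathway genes, 15 passed (11.2%), 7 higher and 8 lower. The median size of the difference was 0.19 on the log2 scale for the 43 genes and 0.27 for all genes. With library size alone the calls were 4 higher and 2 lower (17.1% of all genes called), and with upper-quartile scaling 3 higher and 3 lower (17.3%). Library depth and the naming sets cannot be told apart, since both libraries of the 2-library set were the deepest.

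BNIP3 (chromosome 10, 131966455 to 131982013), a mitophagy receptor known as a target of hypoxia signalling, had 6.90 CPM in anle138b and 7.76 CPM in untreated tumors of the 2-library set, against 15.7 and 13.7 CPM in anle138b and 10.4 and 20.7 CPM in untreated tumors of the 4-library set. The sets did not overlap, and BNIP3 was lower in the 2-library set, with a log2 difference of -1.04 ± 0.25 (adjusted p = 0.0248, edgeR). LAMP1 (chromosome 13, 113297241 to 113323672), the main glycoprotein of the lysosomal membrane, had 94.0 CPM in anle138b and 70.3 CPM in untreated tumors of the 2-library set, against 115 and 103 CPM in anle138b and 104 and 114 CPM in untreated tumors of the 4-library set. Both tumors of the 2-library set were lower (-0.42 ± 0.12, adjusted p = 0.0489, edgeR), and with 1 tumor left out the difference ran from -0.63 (anle138b replicate 3 out) to -0.20 (untreated replicate 3 out). The LAMP1 call was also lost with DESeq2 size factors (adjusted p = 0.0516), library size alone (adjusted p = 0.0600) and a filter of 50 counts in 3 libraries (adjusted p = 0.0530, all edgeR). Its treatment change was 0.14 ± 0.11, with 0.42 in the 2-library set and 0.00 in the 4-library set.

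NPC2 (chromosome 14, 74476192 to 74494177), given above for treatment, was lower in the 2-library set by a log2 difference of -0.40 ± 0.11 (adjusted p = 0.0385, edgeR). GLA (chromosome X, 101397803 to 101408012), the α-galactosidase, had 47.8 CPM in anle138b and 41.9 CPM in untreated tumors of the 2-library set, against 37.5 and 31.1 CPM in anle138b and 30.1 and 32.8 CPM in untreated tumors of the 4-library set. Both tumors of the 2-library set were above all 4 others (0.45 ± 0.11, adjusted p = 0.0297, edgeR). Each of these 4 calls was lost when some tumors were left out in turn, for BNIP3 when these were anle138b replicate 1 or either replicate 3. CTSD (-0.63), SQSTM1 (-0.38), RB1CC1 (0.29) and ATP6V1A (0.27) came next by p and did not pass.

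**Figure D5:**
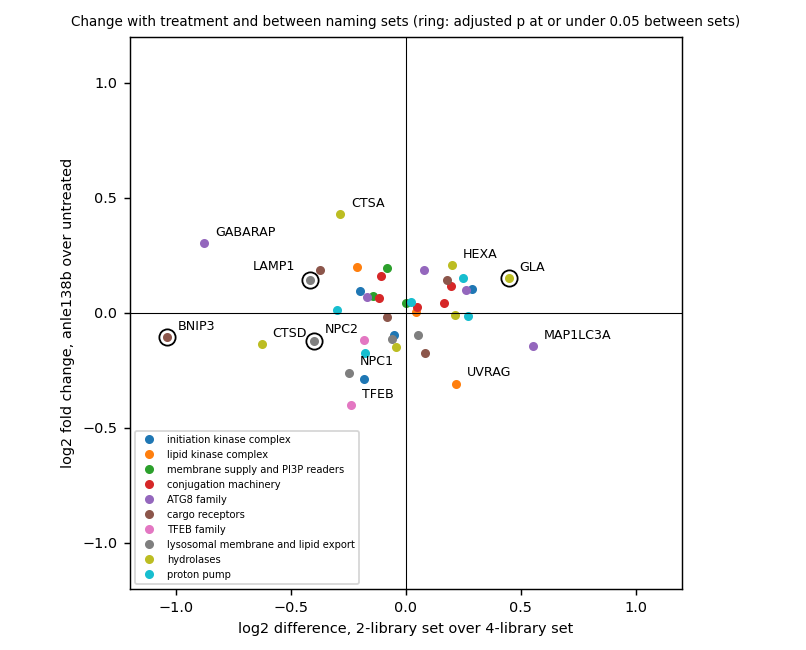
Log2 difference of the 2-library set over the 4-library set on the horizontal axis and log2 fold change of anle138b over untreated on the vertical axis for the 43 genes, coloured by role. Rings mark the 4 genes that passed between sets. BNIP3 lies farthest out on the set axis at -1.04, and CTSA and TFEB farthest on the treatment axis at 0.43 and -0.40.

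Whether the treatment change itself differed between naming sets was tested as an interaction. None of the 43 genes passed (smallest adjusted p = 0.759, edgeR) and 0 had an unadjusted p of at most 0.05, against 0.0% and 6.59% of all genes, with DESeq2 and limma voom calling 0 of the 43. The estimate was largest for CTSD, at 0.68 for the 2-library set over the 4-library set. With 1 tumor of each group in the 2-library set this test rests on the spread within the 4-library set and has 2 residual degrees of freedom.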

How the data were processed

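Raw gene counts of 6 tumors were used as deposited. The authors named bcl2fastq 2.17.1.14, STAR 2.5.2a, featureCounts 1.5.0-p1 and hg38 for these count files, per the submitters' processing notes. Per the labels' protocols, TRIzol served for extraction and the TruSeq RNA v2 kit for the libraries. The annotation release and the settings for strand, multiply mapped reads and host reads are not given in the sources used here. Of 60617 identifiers, 58542 were in GENCODE 29, used for symbols, positions and exon lengths (bases of all exons of a gene merged).

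Counts were fitted with edgeR 4.0.16 in R 4.3.3 (filterByExpr with a minimum count of 10 and a minimum total of 15, TMM, glmQLFit and glmQLFTest on treatment and naming set, 3 residual degrees of freedom, two-sided). Benjamini-Hochberg adjustment covered all 20423 genes, at 0.05. The biological coefficient of variation was 12.8%. Replicates differed by more than sampling noise (chi-square per degree of freedom 8.97 to 49.7). Replicate numbers follow listing order and pair no tumors. DESeq2 1.42.0, limma 3.58.1 voom, other scalings and filters, the 4-library set alone and leaving out each tumor were alternatives. Tested on simulated data of 20423 genes with 200 changed, the treatment fit made 169 calls, of which 17 (10.1%) were false.

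The 43 genes, the lists and the tests were chosen with earlier results of these data known. Values per tumor are given for genes with an unadjusted treatment p of at most 0.05, the smallest treatment p or the highest level per kilobase in each role, the 8 smallest p between naming sets, and the 2 smallest treatment p of each list of other pathway genes. BECN1 was added after its values were seen, and MITF stands beside TFEB and TFE3 for comparison. ± is a standard error for log2 changes and an SD for levels. Log2 changes within a set are differences of mean log2 CPM with a prior count of 2.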

Additional observations from a re-analysis of the deposited data

How the results depend on the processing

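No paired analysis was possible because the labels give no shared replicate numbers. The count of 0 of the 43 genes for treatment became 1 (CTSA) without the filter on low counts, and stayed at 0 in the other alternatives, including each tumor left out. Over all genes the 215 treatment calls became 754 without the filter, 412 with DESeq2, 9 without the set term and 92 in the 4-library set alone, and 89 to 392 with single tumors left out. For the other pathway genes, 0 became 3 without the filter (IDUA, ATP6V0A4, ATP6V0D2), 1 with DESeq2, and 0 to 1 with tumors left out. The 4 calls between sets became 3 with DESeq2 size factors, 7 without the filter and 0 to 7 with tumors left out, 0 without anle138b replicate 1 or untreated replicate 3. The interaction over all genes went to 1 with upper-quartile scaling, 11 with library size alone, 262 without the filter, 31 with DESeq2 and 24 to 436 with tumors left out; among the 43 it was 0 to 1 (CTSD without anle138b replicate 1). Of the highest members per role, 5 of 10 remained when exon length was ignored. The cause of these moves was not tested.

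Single estimates were followed under the alternatives only for genes chosen by the rule for values per tumor, without BECN1 and MITF. Among those, treatment estimates changed sign for 7 genes. The other members were not followed in this way. Of them, WIPI2, ATG5, ATP6V0D1 and ATP6V1H combined a positive estimate with a negative difference within the 4-library set. Those differences were -0.029, -0.002, -0.078 and -0.068. ATG14 gave -0.016 with upper-quartile scaling and with library size alone and -0.0090 in the 4-library set, GABARAPL2 -0.018 and LAMP1 -3.3e-05 in that set, and ATP6V1A 0.00065 with DESeq2 size factors, 0.00064 with DESeq2 and 0.012 in that set. With single tumors left out, ATG14 ranged from -0.047 to 0.088, ATG3 from -0.051 to 0.12, GABARAPL2 from -0.017 to 0.14, ATP6V1A from -0.084 to 0.033, BNIP3 from -0.33 to 0.21 and CTSD from -0.36 to 0.12. Of 610 values of the followed genes for treatment and naming set under 15 alternatives, 551 kept direction and side of the threshold. At 6 to 22 reads per tumor for GABARAP and 14 to 75 for MAP1LC3A, the intervals of their changes are wide.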
